A study of Mus musculus with 454 samples.

Results

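Metabotropic glutamate receptors are described here through 6 genes, Grm2, Grm3, Grm4, Grm5, Grm7 and Grm8, which were chosen by name from a table of 43346 genes after Ensembl identifiers had been matched to symbols. All 6 were found, and each passed the filter on low counts in every region. They were followed in mouse brain RNA-seq libraries, 115 from the region labelled AMY (amygdala), 112 from Nac (nucleus accumbens), 112 from PFC (prefrontal cortex) and 115 from VTA (ventral tegmental area). The study crossed sex (F or M), housing (G, group-housed, or SI, socially isolated), treatment (saline, or cocaine at 7.5 mg/kg) and schedule (acute or chronic), which gives 16 groups in each region with 5 to 8 libraries in each. Isolation fell in adolescence, as the title of the study states. The sources used here do not state strain, age, length of isolation, number of injections or time of dissection. The labels do not say that libraries of a group came from separate animals, so p-values measure the spread between libraries, which may in part be technical.

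These receptors are G protein-coupled receptors that sense glutamate and tune synapses more slowly than the ion channel receptors do. Group I, to which Grm5 belongs, acts through Gq and phospholipase C and lies mostly on the postsynaptic side, where Homer and Shank proteins hold it. Group II (Grm2 and Grm3) and group III (Grm4, Grm6, Grm7 and Grm8) act through Gi/o, lower cyclic AMP and, on axon terminals, limit further release of transmitter. Grm3 is also made by astrocytes, and Grm6 is best known from the retina. In the reward circuit, group II receptors and Grm5 have been studied for their part in cocaine seeking.

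The genes lie on different chromosomes or far apart, and differ in size. In GRCm38, Grm2 (ENSMUSG00000023192) is the shortest at 13 kb, at chr9:106643095-106656082 on the minus strand. Grm3 (ENSMUSG00000003974) spans 239.6 kb at chr5:9485541-9725170 (minus), and Grm4 (ENSMUSG00000063239) spans 99.0 kb at chr17:27422387-27521403 (minus). Grm5 (ENSMUSG00000049583) covers 550.7 kb at chr7:87584168-88134907 (plus). Grm7 (ENSMUSG00000056755) and Grm8 (ENSMUSG00000024211) are both on chromosome 6, at chr6:110645581-111567230 (plus, 921.6 kb) and chr6:27275119-28135178 (minus, 860.1 kb).

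The promoters of Grm2 and Grm8 are shown because the levels of these genes were the most alike of any pair of members over the 64 group means, with that of Grm3 for contrast, as the other group II gene. Each is the RefSeq window from 250 bases before to 50 bases after the listed start, on GRCm38.p6, written 5′ to 3′ on the strand of the gene, with GC boxes (GGGCGG on the printed or the other strand) in capitals. For Grm8 the start farthest upstream of 3 listed ones is used.
Grm2, chr9:106656060-106656359: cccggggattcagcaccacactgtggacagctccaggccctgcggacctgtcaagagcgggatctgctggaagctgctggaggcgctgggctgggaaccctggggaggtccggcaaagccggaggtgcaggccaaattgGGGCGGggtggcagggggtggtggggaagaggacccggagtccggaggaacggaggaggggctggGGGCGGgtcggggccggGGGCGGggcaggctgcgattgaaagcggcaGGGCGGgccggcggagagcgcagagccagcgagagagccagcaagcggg
Grm8, chr6:28135097-28135396: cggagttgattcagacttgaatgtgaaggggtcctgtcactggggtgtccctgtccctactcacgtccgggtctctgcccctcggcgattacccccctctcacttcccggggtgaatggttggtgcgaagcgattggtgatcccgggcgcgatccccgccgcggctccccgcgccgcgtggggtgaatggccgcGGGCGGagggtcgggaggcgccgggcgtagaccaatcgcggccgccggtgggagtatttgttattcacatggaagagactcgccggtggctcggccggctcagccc
Grm3, chr5:9725303-9725602: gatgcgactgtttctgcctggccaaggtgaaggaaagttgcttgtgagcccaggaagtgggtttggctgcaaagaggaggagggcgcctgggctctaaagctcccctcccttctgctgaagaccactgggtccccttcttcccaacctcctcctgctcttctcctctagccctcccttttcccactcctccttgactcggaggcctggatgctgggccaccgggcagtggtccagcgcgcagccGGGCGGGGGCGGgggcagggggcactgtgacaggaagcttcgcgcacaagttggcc
The Grm2 window holds 4 GC boxes, with 72.0% G and C and 22 CpG pairs. That of Grm8 holds 1 GC box, 67.0% G and C and 33 CpG pairs, and that of Grm3 holds 2 GC boxes, 63.7% and 11. Among 32851 mouse promoters of the same length, 35.7% held a GC box, and the medians were 52.7% G and C and 7 CpG pairs. None of the 3 windows held the E-box CAGATG on either strand, which 17.2% of all promoters had. The same was true of the motif TGACG, part of the cyclic AMP response element and found in 20.8% of promoters. A TATA box, spelled TATAAA and present in 13.6% of promoters, was also not in these windows. A match of letters in these windows is a description and not a measured binding site.

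Levels are given as counts-per-million (CPM), scaled across all libraries by the TMM method. Library totals ran from 11.21 to 52.34 M counts (median 21.71 M). Even the lowest medians of a member in a region, 4.20 CPM for Grm2 and 5.19 CPM for Grm8 in Nac, therefore rested on medians of 89 and 104.5 counts. There were 19 libraries that stood apart (5 AMY, 6 Nac, 2 PFC, 6 VTA), by choroid plexus, striatal, cortical, cerebellar or dopamine neuron markers, by sex genes against the label or by a principal component. Results were also computed without them. Striatal markers were highest in Nac, cortical glutamatergic markers in PFC and dopamine neuron markers in VTA, as the region labels state. Every library comes from bulk tissue, in which fewer cells of a type and less RNA per cell cannot be told apart.

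Region set the level of these receptors far more than any treatment, and each receptor had its own regional order. For tests between regions, a gene was called at an adjusted p under 0.05 and a log2 difference of at least 1 (edgeR's quasi-likelihood test over all libraries of the 4 regions, Benjamini-Hochberg adjustment over 18627 genes).

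Grm5, of group I, had its highest levels in Nac, with 176.0 CPM in the lowest, 423.0 in the median and 669.1 in the highest library. It followed in PFC (148.8, 256.3 and 365.5), AMY (175.1, 240.1 and 335.5) and VTA (45.7, 92.3 and 118.4). Every VTA library lay below every library of the other 3 regions for this gene. The VTA level was 4.66-fold lower than that of Nac (log2 difference -2.22, SE 0.03, adjusted p = 4.68e-225).

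The group II genes did not share a regional order. Grm2, which acts on glutamatergic terminals, was highest in PFC (25.5, 59.0 and 119.1 CPM for the lowest, median and highest library) and then in AMY (14.7, 37.0 and 64.03). It was low in VTA (4.02, 7.78 and 36.4) and lowest in Nac (1.86, 4.20 and 13.8). All 112 Nac libraries lay below all 112 PFC libraries, a 12.6-fold difference (log2 3.66, SE 0.06, adjusted p = 5.31e-196). Grm3 had most in Nac (54.4, 114.5 and 154.7 CPM), then PFC (49.6, 85.8 and 117.3) and VTA (36.9, 48.9 and 60.1), and least in AMY (25.2, 36.3 and 56.3). Nac was above AMY by 1.58 on the log2 scale (SE 0.03, adjusted p = 5.03e-175).

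In group III, Grm4 was highest in Nac, where Grm8 was lowest. Grm4 reached 49.6, 91.4 and 154.6 CPM in Nac (lowest, median and highest library), against 21.5, 33.8 and 66.9 in VTA. PFC (15.4, 23.3 and 37.7) and AMY (10.3, 23.3 and 44.3) came last. Of neighbours in the 6 orders, only this pair did not differ in mean level by adjusted p. Its log2 difference of PFC minus AMY was 0.04 (SE 0.04, adjusted p = 0.309). The test compares means. Libraries of other neighbours also overlapped, such as Grm5 in PFC (148.8 to 365.5 CPM) and AMY (175.1 to 335.5 CPM). Grm8 had 14.4, 34.2 and 45.6 CPM in PFC, 8.63, 21.8 and 36.8 in AMY, 7.31, 12.4 and 25.6 in VTA, and 1.15, 5.19 and 13.7 in Nac. Again all 112 Nac libraries were below all 112 PFC libraries, by 6.22-fold (log2 2.64, SE 0.06, adjusted p = 1.21e-155). Grm7, the most widespread presynaptic receptor of the family, varied least between regions, from a median of 88.8 CPM in Nac and 84.9 in AMY to 64.4 in PFC and 36.1 in VTA. The ratio of the highest to the lowest regional median was 2.46 for Grm7, 3.15 for Grm3, 3.93 for Grm4, 4.58 for Grm5, 6.58 for Grm8 and 14.04 for Grm2. Grm6 had a median of 0 counts in every region and at most 3 counts in any library.

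**Figure D1:**
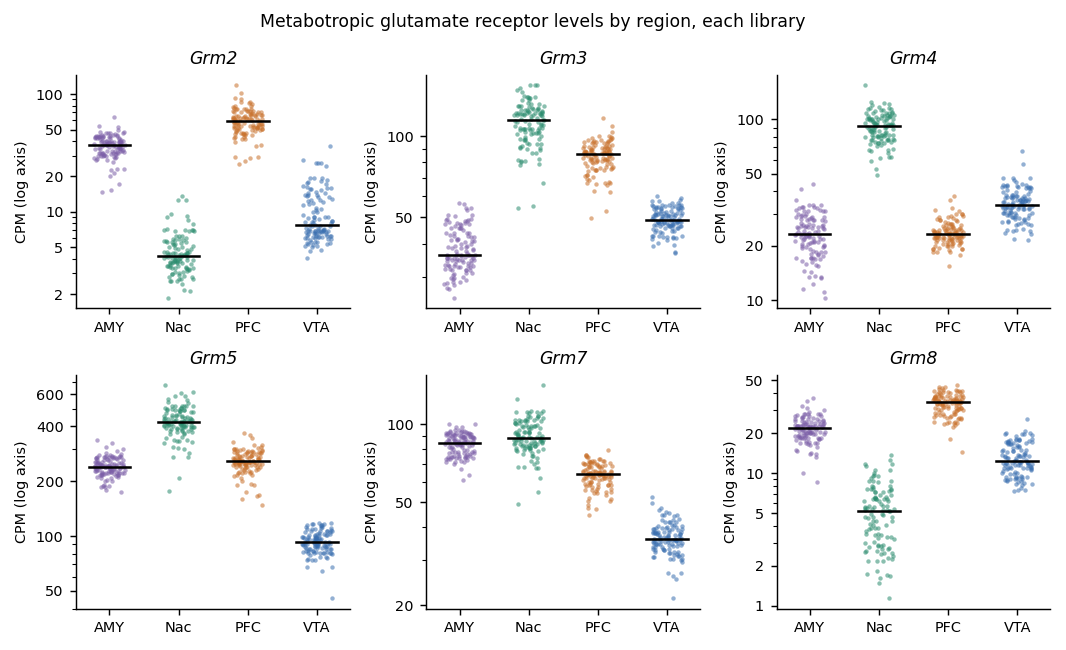
Level of each receptor (CPM, log axis) in every library of the 4 regions, with black lines at the medians. Grm2 and Grm8 are lowest in Nac (medians 4.20 and 5.19 CPM), where Grm3, Grm4, Grm5 and Grm7 are highest, and Grm5 in VTA lies below all other libraries.

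Between Nac and AMY, 4 of the 6 members were called, where 12.1% of all genes were: Grm3 and Grm4 were higher and Grm2 and Grm8 lower in Nac. Only Grm3 was called between PFC and AMY (11.2% of all genes). PFC and Nac differed in Grm2, Grm8 and Grm4 (3 of 6, with 13.9% of all genes called). VTA was lower than AMY in Grm2, Grm5 and Grm7 (3 of 6, 15.7% of all genes), and differed from Nac in all 6 members (21.9% of all genes), with Grm2 and Grm8 higher and the other 4 lower. Between VTA and PFC, Grm2, Grm5 and Grm8 were called, all lower in VTA (3 of 6, 21.9% of all genes). These tests average over both schedules. In acute groups, Grm2 means ran from 9.59 to 19.95 CPM in VTA and from 4.43 to 6.44 CPM in Nac. In chronic groups they ran from 6.41 to 7.25 CPM in VTA and from 3.245 to 5.685 CPM in Nac. Regions were not tested within a schedule.

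Levels of different receptors can be set side by side only per length, and were taken per kilobase of exon of all transcripts merged. On this scale Grm5 led in Nac (41.3 CPM per kb), ahead of Grm3 (37.5), Grm4 (15.3) and Grm7 (15.1), with Grm2 (0.858) and Grm8 (0.524) far behind. It led in AMY too (23.4), where Grm7 (14.4) and Grm3 (11.9) followed. In VTA Grm3 was first (16.04), before Grm5 (9.003) and Grm7 (6.14). PFC had Grm3 (28.2) just above Grm5 (25.0) and Grm2 (12.1), but per kilobase of the longest transcript Grm5 (31.9) was above Grm3 (28.2).

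Social isolation, the main question of the study, went with no called difference in any receptor. Of 24 values (6 genes in 4 regions) for isolated minus group-housed mice, averaged over sex, treatment and schedule, 0 passed an adjusted p of 0.05 in edgeR's quasi-likelihood test, and 0 had an unadjusted p under 0.05. The log2 differences lay between -0.14 and 0.11, and the 95% intervals of all 24 between -0.32 and 0.31. No gene of the whole table was called for housing in any region either (0% in each), with 407 to 708 genes a region at an unadjusted p under 0.05. DESeq2 and limma voom also called 0 of the 24 receptor values. Grm2 in PFC shows the overlap: group-housed libraries had 25.5, 59.8 and 93.1 CPM (lowest, median and highest) and isolated ones 27.2, 58.5 and 119.1. In simulated counts with AMY's spread, 82% of 50 genes changed by 1.2-fold were called, and all 50 changed by 1.5-fold. The simulation covered AMY alone, changed many genes at once and drew each gene independently. It therefore does not give the power for the 24 receptor values, whose SE ran from 0.03 to 0.14.

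Sex likewise gave 0 calls of 24 for the receptors in edgeR, DESeq2 and limma voom, with log2 differences of female minus male between -0.20 and 0.14. Over all genes the share called for sex was 2.19% in AMY and 1.12% in PFC, against 0.332% in VTA and 0.272% in Nac. A single unadjusted p was under 0.05, that of Grm2 in AMY (log2 0.14, SE 0.06, unadjusted p = 0.0196, adjusted p = 0.205). Whether isolation changed the sex difference was asked in the saline groups, and here too 0 of 24 values (1 at an unadjusted p under 0.05) and 0% of all genes in each region were called.

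Acute cocaine changed none of the receptors past the threshold. The 24 log2 differences of acute cocaine minus acute saline ran from -0.14 to 0.08, and 0 were called, with 1 unadjusted p under 0.05 (Grm3 in VTA, 0.08, SE 0.04, adjusted p = 0.748). Few genes of any kind were called: 0.0647% in PFC, 0.0467% in VTA and 0% in the other 2 regions. For Grm2 in VTA the value was not the same in each number series of the libraries, a difference that was not tested. The titles carry a number, whose leading digits split the libraries into series 500, 1000, 1100 and 1200; the labels do not say what the series are. Acute groups lie in series 1000 and 1100. Within series 1000 Grm2 in VTA was lower in acute cocaine by 0.59 on the log2 scale (adjusted p = 0.0459), with medians of 16.8 CPM in 12 saline and 12.6 CPM in 16 cocaine libraries. Within series 1100 it was higher by 0.37 (adjusted p = 0.906), with 10.3 CPM in 16 saline and 12.8 CPM in 13 cocaine libraries. Over both series the log2 difference was -0.08. The saline libraries of series 1000 include group-housed male replicate 2, which stood apart by choroid plexus markers. It had the highest Grm2 of all VTA libraries (36.4 CPM). More genes of all kinds were also called for acute cocaine in VTA within series 1000 than over both series.

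The same gene gave the largest difference of acute cocaine by housing. In VTA libraries of acute saline mice, Grm2 had a median of 17.6 CPM in 15 group-housed and 11.5 CPM in 13 isolated libraries, while the acute cocaine medians were 12.2 CPM (14 group-housed) and 13.4 CPM (15 isolated). The groups overlapped, with group-housed saline libraries from 5.81 to 36.4 CPM and isolated ones from 4.02 to 18.1 CPM. The cocaine difference in isolated minus that in group-housed mice was 0.79 (log2, SE 0.25) and missed the threshold (adjusted p = 0.0754, and between 0.0587 and 0.138 under the alternatives tried). Its p was the lowest of the 24 values, of which 0 were called by edgeR, DESeq2 or limma voom and 2 had an unadjusted p under 0.05, while 1.28% of all genes were called in VTA and 0% in the other 3 regions. All 9 choroid plexus markers were called higher in this VTA contrast (median log2 4.37). Without the 6 VTA libraries that stood apart, 4 of them by these markers, no gene was called in VTA, and the Grm2 value was 0.87 (adjusted p = 0.0753).

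Chronic cocaine went with lower Grm2 and Grm8 in PFC when chronic cocaine and chronic saline libraries were compared over all series. These were 2 of the 24 values, both in PFC, where 7.12% of all genes were called (VTA 0.0817%, Nac 0.151%, AMY 0.0518%). Grm2 in PFC had 25.5, 65.0 and 119.1 CPM (lowest, median and highest) in 26 chronic saline and 27.2, 51.8 and 75.3 CPM in 28 chronic cocaine libraries, a 1.29-fold lower level (log2 -0.37, SE 0.09, adjusted p = 0.00997). Grm8 had 22.2, 34.8 and 45.6 CPM in saline and 14.4, 29.9 and 37.3 CPM in cocaine (log2 -0.22, SE 0.07, adjusted p = 0.0329). Both groups overlapped widely, and 22 of the 28 cocaine libraries lay below the saline median of Grm2.

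These PFC differences moved with the number series. Chronic saline was run in series 500 and 1200 and chronic cocaine in series 1000 and 1200, so that only series 1200 holds both. For Grm2 in PFC the medians were 85.7 CPM in 10 saline libraries of series 500, 58.7 CPM in 16 saline libraries of series 1200, 51.0 CPM in 20 cocaine libraries of series 1000 and 59.1 CPM in 8 cocaine libraries of series 1200. The high level was thus that of the saline libraries of series 500, and 0 of the 16 saline libraries of series 1200 reached their median. Within series 1200 the cocaine difference was -0.15 for Grm2 and -0.10 for Grm8 (log2, adjusted p = 1.0 for both), and with the series in the model it was -0.11 and -0.12 (adjusted p = 1.0 for both). Grm8 was also no longer called without the 2 PFC libraries that stood apart (log2 -0.19, adjusted p = 0.104) or without the filter on low counts (-0.22, adjusted p = 0.0663).

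**Figure D2:**
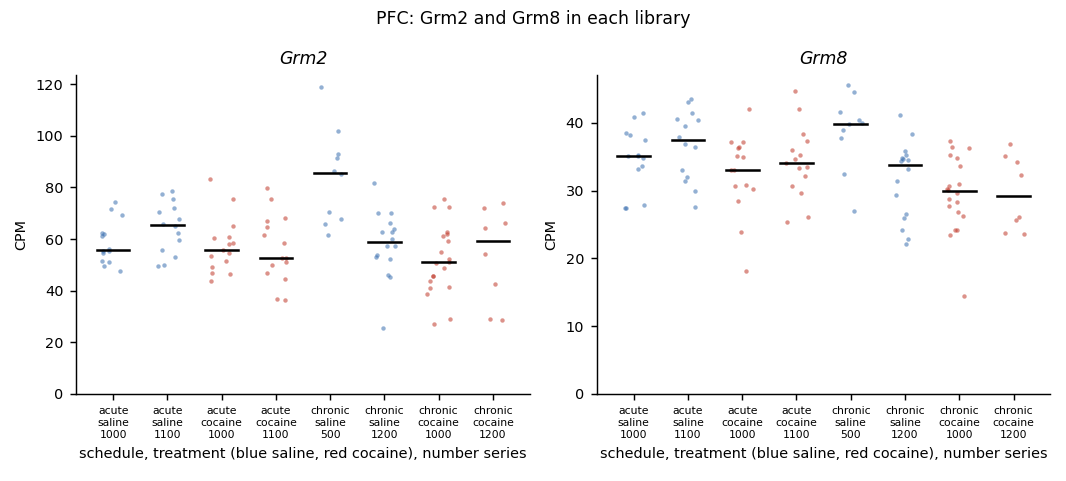
Grm2 and Grm8 levels (CPM) in every PFC library, by schedule, treatment and number series, with black lines at the medians. For Grm2 the 10 chronic saline libraries of series 500 sit highest (median 85.7 CPM), while chronic saline and chronic cocaine of series 1200 lie close together (58.7 and 59.1 CPM).

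Series 1200 minus 500, told by the chronic saline groups, was itself called in PFC for Grm2 (log2 -0.55, SE 0.12, adjusted p = 0.00125) and Grm8 (-0.28, SE 0.10, adjusted p = 0.0342), 2 of 24 values. Without the filter on low counts Grm8 was not called (adjusted p = 0.056). This contrast called 14.6% of all genes in PFC, 9.54% in Nac, 4.16% in AMY and 0.0575% in VTA. Markers of other cells moved along. Of 10 oligodendrocyte markers 6 were higher in series 1200 (median log2 0.75), and of 9 striatal markers 3 (0.54). The summed striatal markers had medians of 257.3 CPM in saline of series 500, 337.9 CPM in saline of series 1200, 305.2 CPM in cocaine of series 1000 and 395.1 CPM in cocaine of series 1200. In the comparison over all series, 6 of the 9 striatal markers were called higher in chronic cocaine (median log2 0.50), and 0 of 9 cortical glutamatergic markers in either direction (median -0.11). Over the 112 PFC libraries, deviations of Grm2 from its group means had r = 0.67 with cortical glutamatergic and r = -0.67 with striatal markers. For Grm8 these were 0.58 and -0.38, and r was -0.58 with astrocyte markers (-0.35 for Grm2). With oligodendrocyte markers r was -0.5 for Grm2 and -0.14 for Grm8. The part of tissue composition in the Grm2 and Grm8 values was not tested.

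For the 24 receptor values, the housing difference of the chronic cocaine effect gave 0 calls in edgeR, DESeq2 and limma voom (0 at an unadjusted p under 0.05), and 0% of all genes were called in each region. The chronic minus the acute cocaine effect also gave 0 of 24 (1 at an unadjusted p under 0.05) and 0% in each region.

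The schedule gave the largest receptor differences within a region, and they were in VTA. There, Grm2 and Grm8 were lower in chronic than in acute libraries of either treatment. Grm2 had 4.02, 14.2 and 36.4 CPM (lowest, median and highest) in 28 acute saline libraries and 4.67, 6.80 and 9.09 CPM in 29 chronic saline ones, a 2.02-fold lower level (log2 -1.01, SE 0.13, adjusted p = 2.03e-10). In cocaine it had 4.98, 12.8 and 25.9 CPM in 29 acute and 4.79, 6.81 and 9.39 CPM in 29 chronic libraries (log2 -0.96, SE 0.13, adjusted p = 1.37e-09). All 58 chronic libraries lay below the acute median, and 43 of the 57 acute ones lay above every chronic library. The acute libraries also spread more widely, with an SD of 6.39 CPM against 1.15 CPM in the chronic ones.

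Grm8 moved in the same direction. It had 11.0, 16.7 and 25.6 CPM in acute saline and 7.43, 9.95 and 14.7 CPM in chronic saline libraries, a 1.57-fold lower level (log2 -0.65, SE 0.07, adjusted p = 5.04e-13). In cocaine it went from 11.4, 14.8 and 19.7 CPM in acute to 7.31, 10.6 and 15.5 CPM in chronic libraries (log2 -0.53, SE 0.07, adjusted p = 1.02e-09). Grm7 was lower by less, from a median of 38.9 to 35.6 CPM in saline (log2 -0.18, adjusted p = 0.00181) and from 37.5 to 34.5 CPM in cocaine (-0.17, adjusted p = 0.00317). Grm4 was called in saline alone (-0.17, adjusted p = 0.0478) and not without the filter on low counts (adjusted p = 0.0907), and its value in cocaine was -0.06 (adjusted p = 0.533), which became -0.16 without the 6 libraries that stood apart (adjusted p = 0.0401). The schedule difference in saline was not called for Grm3 (0.07, adjusted p = 0.151) or Grm5 (0.01, adjusted p = 0.907).

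**Figure D3:**
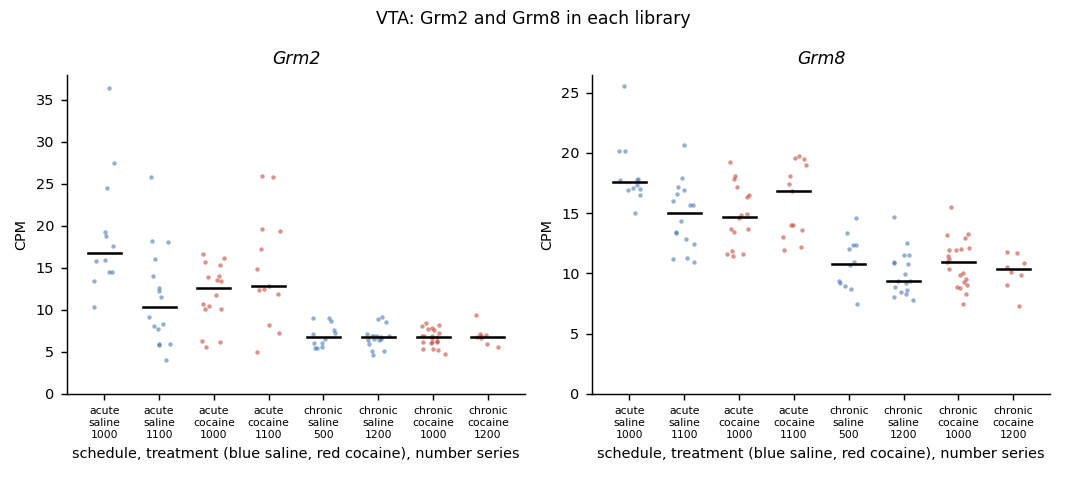
Grm2 and Grm8 levels (CPM) in every VTA library, by schedule, treatment and number series, with black lines at the medians. The 4 chronic sets lie at medians near 6.80 CPM for Grm2, below the medians of all 4 acute sets, which run from 10.3 to 16.8 CPM.

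Schedule calls were common in VTA, for 43.6% of all genes in saline and 38.2% in cocaine, so that 4 and 3 called members of 6 are near this background. Elsewhere the saline comparison called 23.3% of all genes in PFC, 20.9% in Nac and 20.4% in AMY, and that in cocaine 18.5%, 24.3% and 18.4%. Acute and chronic saline libraries share no number series, so that the saline libraries alone cannot separate schedule from series. A model with series as a term does so through the cocaine libraries. Cocaine libraries of both schedules occur in series 1000, and within it Grm2 (log2 -0.79, adjusted p = 3.34e-06), Grm8 (-0.44, adjusted p = 1.42e-04) and Grm7 (-0.17, adjusted p = 0.0165) remained called in VTA. For Grm2 the 16 acute libraries of that series had a median of 12.6 CPM and the 21 chronic ones 6.81 CPM, and 13 of the 16 lay above all 21. With series in the model, the saline values of Grm2 (-1.18, adjusted p = 0.00185) and Grm8 (-0.64, adjusted p = 0.00176) were still called, and those of Grm7 (-0.29, adjusted p = 0.0506) and Grm4 (-0.37, adjusted p = 0.0965) were not.

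Cell markers moved with the schedule in VTA as well. All 8 microglia markers were higher in chronic saline (median log2 0.43) and chronic cocaine (0.36), with summed medians of 265.3 and 266.1 CPM in acute and 339.3 and 331.8 CPM in chronic saline and cocaine libraries. Of 8 dopamine neuron markers 7 were higher in both treatments (median log2 0.74 in saline and 0.60 in cocaine), and their summed medians rose from 3359 to 5576 CPM in saline and from 3465 to 6038 CPM in cocaine. Of 7 dentate granule markers 2 were higher and 1 lower in either treatment (median log2 0.04 in saline and 0.22 in cocaine). Their summed medians were 440.2 CPM in acute and 301.1 CPM in chronic saline, and the lower gene in saline was Calb2 (-0.84). Of 9 cortical glutamatergic markers 1 was higher and 4 lower in saline (median -0.03), among them Neurod6 (-1.55), and 1 higher and 3 lower in cocaine (median -0.32). Choroid plexus markers were lower in chronic libraries, 4 of 9 in saline (median -0.83) and 9 of 9 in cocaine (median -1.81). The medians of their sums were close (547.8 and 541.8 CPM in saline, 538.3 and 526.6 CPM in cocaine). Such sums follow the most abundant markers, as the mean log2 CPM of the 9 genes had a median of 1.53 over VTA libraries. Close sums therefore do not show equal amounts of choroid plexus. The highest library reached 3786 CPM in acute saline and 16770 CPM in acute cocaine, against 627.7 and 1100 CPM in the chronic ones. Of 5 pituitary markers tested 5 were higher in saline and 2 in cocaine, with summed medians from 2.17 to 19.6 CPM in saline and from 2.23 to 4.17 CPM in cocaine. None of these lists had all its markers at 0. Striatal markers had 1 of 9 higher and 3 lower in both treatments. Of 7 tested markers of hypothalamus and medial amygdala, 1 was higher and 3 lower in saline, and 1 and 5 in cocaine. Over the 115 VTA libraries, deviations of Grm2 from its group means had r = -0.63 with dentate granule and -0.60 with oligodendrocyte markers. With striatal, dopamine neuron and microglia markers r was 0.60, 0.31 and -0.03. For Grm8 the values in this order were -0.28, -0.19, 0.36, -0.26 and -0.31. The part of dissection or cell makeup in the Grm2 and Grm8 values was not tested.

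A comparison of the schedule difference between regions, over both treatments, was added after the values had been seen. It asks whether VTA differed from the other regions, and used 1 fit over all libraries of the 4 regions. Number series was not a term in this fit, and acute and chronic saline libraries share no series. Of the alternatives only limma voom was run on this comparison, so the part of series in it was not tested. For Grm2 the schedule difference in VTA differed from that in AMY by -0.97 (log2, SE 0.11, adjusted p = 8.05e-15), from that in PFC by -0.98 (SE 0.11, adjusted p = 2.55e-15) and from that in Nac by -0.62 (SE 0.12, adjusted p = 4.94e-06). Grm8 differed from AMY (-0.40, SE 0.11, adjusted p = 0.00231) and PFC (-0.47, SE 0.11, adjusted p = 1.43e-04), while for VTA against Nac the value was -0.15 (95% interval -0.37 to 0.08). Grm7 differed from AMY (-0.17) and Nac (-0.29), and Grm4 from Nac alone (-0.24). Of the 6 members, 3 were called against AMY, 3 against Nac and 2 against PFC, where 25.4%, 42.9% and 36.5% of all genes were. All 8 microglia markers were called higher in each of the 3 comparisons. Other lists moved too. Of 8 dopamine neuron markers, 4, 5 and 6 were higher and 0 lower against AMY, Nac and PFC. In this order, 2, 8 and 7 of 9 choroid plexus markers were lower and 0 higher. Of 9 striatal markers 4, 5 and 4 were lower and 1 higher in each. The part of these shifts in the receptor values was not tested.

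Outside VTA the largest schedule differences of the receptors were in Nac. There, Grm2 was lower in chronic saline (median 3.75 CPM of 28 libraries, against 5.28 CPM of 27 acute ones; log2 -0.54, SE 0.14, adjusted p = 0.00425), but not with series in the model (-0.21, adjusted p = 1.0). Grm8 in Nac was -0.49 in saline (adjusted p = 0.0625) and -0.39 in cocaine (adjusted p = 0.127). Without the 6 Nac libraries that stood apart, both Grm8 values were called (-0.51, adjusted p = 0.0452, and -0.53, adjusted p = 0.0247). Grm5 in saline (log2 0.128 to 0.191) and Grm3 in cocaine (0.116 to 0.181), higher in chronic libraries, became called under some alternatives. Their lowest adjusted p values were 0.0432 and 0.0362. Over the 112 Nac libraries, deviations of Grm2 from its group means had r = -0.46 with striatal and 0.67 with cortical glutamatergic markers. For Grm8 these were -0.81 and 0.15. The part of tissue composition in the Nac values of Grm2 and Grm8 was not tested. Grm7 in Nac was higher in chronic cocaine by 0.16 (SE 0.06, adjusted p = 0.0425), and was not called within series 1000 (0.11, adjusted p = 0.373) or without the filter on low counts (adjusted p = 0.0819). In AMY, Grm8 was lower in chronic cocaine, with 19.0 CPM against 23.2 CPM in acute cocaine (medians of 30 and 28 libraries, log2 -0.27, SE 0.08, adjusted p = 0.00682). Within series 1000 its value was no longer called (adjusted p = 0.0555), nor was it with series in the model (adjusted p = 0.0812). Other receptors became called in AMY for the schedule in cocaine. With series in the model Grm4 was higher in chronic cocaine (0.365, adjusted p = 0.00924). Over the alternatives, the lowest adjusted p was 0.0238 for Grm3 (log2 0.145 to 0.237) and 0.0365 for Grm5 (-0.146 to -0.055). For the schedule in cocaine in AMY, 6 of 10 markers of hypothalamus and medial amygdala were lower (median log2 -0.26). In PFC, Grm4 was lower in chronic saline (median 21.7 against 24.5 CPM, log2 -0.20, SE 0.05, adjusted p = 0.00243), and its sign turned with series in the model (0.05, adjusted p = 0.883). Over the 4 regions, 6 of 24 values were called for the schedule in saline and 5 of 24 in cocaine.

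**Figure D4:**
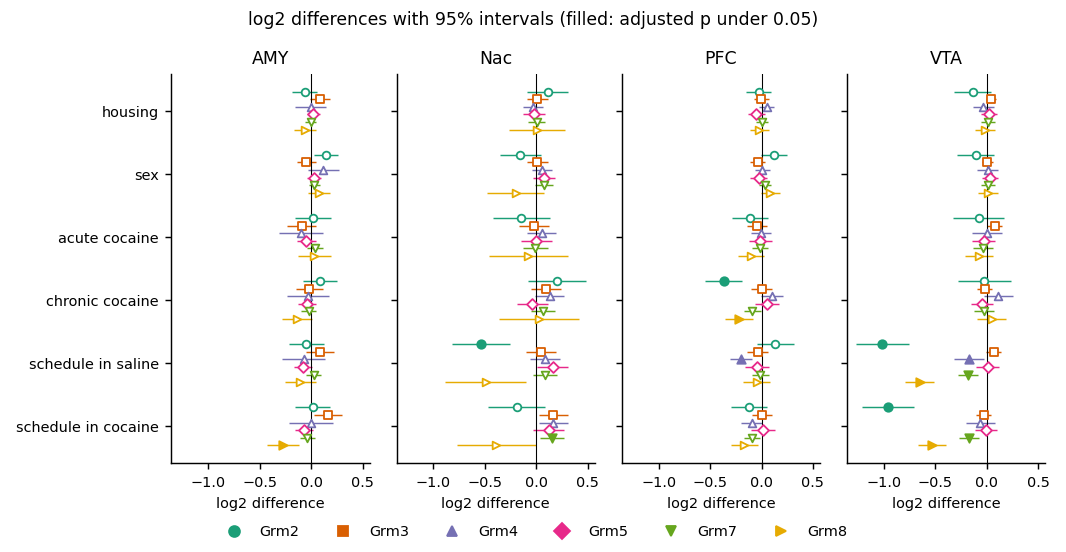
Log2 differences of the 6 receptors with 95% intervals, for 6 comparisons in each region, with filled symbols for an adjusted p under 0.05. Housing, sex and acute cocaine have only open symbols, and the largest differences are those of Grm2 (-1.01 and -0.96) and, in saline, Grm8 (-0.65) with the schedule in VTA.

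Between series 1100 and 1000, told by the acute groups, Grm4 in AMY was the single receptor value called of 24. Its medians were 17.8 CPM in saline and 21.2 CPM in cocaine of series 1000 (14 libraries each), against 31.2 CPM (13 libraries) and 24.8 CPM (14 libraries) in series 1100, a 1.42-fold difference (log2 0.50, SE 0.09, adjusted p = 0.00251). Of 9 striatal markers 4 were higher in series 1100 (median 0.42), and whether they bear on Grm4, which was highest in Nac, was not tested. Of all genes, 3.75% were called for it in AMY, 2.05% in PFC, 1.46% in Nac and 0.472% in VTA. Series 1200 minus 1000, told by the chronic cocaine groups, called 0 of 24 receptor values in edgeR and limma voom, with 3 at an unadjusted p under 0.05 (of all genes 0.0348% in PFC, 0.0230% in VTA, 0.00571% in AMY and 0% in Nac).

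Genes that work with these receptors were followed as 4 lists. Their counts for the schedule in VTA stand against 43.6% of all genes called in saline and 38.2% in cocaine. For the schedule in VTA, the scaffold list (Homer, Shank and other partners, 13 genes tested) had 1 gene higher and 3 lower in chronic saline, and 0 higher and 4 lower in cocaine, with a median log2 difference of 0.02 in both (all genes 0.00 in both). Homer1, which links group I receptors to the postsynaptic density, was lower by 0.22 in saline and 0.27 in cocaine. Its schedule difference was larger in PFC (-1.02 in saline, -0.95 in cocaine) and AMY (-0.65 and -0.39), and over both treatments VTA differed from PFC by 0.76 (adjusted p = 1.61e-14) and from AMY by 0.28 (adjusted p = 0.00943). Of 16 genes of the Gq arm 2 were higher and 1 lower in saline, among them Rgs4, a brake on Gq and Gi signalling (-0.54), and protein kinase C alpha (Prkca, 0.55). The Gi arm had 8 of 21 genes higher and 5 lower in saline, and 8 and 4 in cocaine. The potassium channel subunit gene Kcnj9 was lower (-0.31 in saline, -0.26 in cocaine) and its partner Kcnj6 was higher (0.69 in saline). Of 12 genes for glutamate transport and metabolism 1 was higher and 5 lower in both treatments. The lower ones included the vesicular transporter genes Slc17a6 (-0.95 in saline, -0.65 in cocaine) and Slc17a8 (-2.50 and -1.77) and the cystine-glutamate exchanger Slc7a11 (-0.60 and -0.52).

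For chronic cocaine in PFC, where 7.12% of all genes were called but 1 gene in all with series in the model and 1 within series 1200, the Gi list had 1 of 21 genes higher (Adcy5, 0.22) and 3 lower (Adcy2, Rgs7 and Kcnj3, -0.16, -0.14 and -0.12). The Gq list had 0 of 16 higher and 3 lower (among them Rgs4, -0.27, and Prkcb, -0.18), the scaffold list had 1 of 13 lower (Dlgap1, -0.13), and 0 of 12 glutamate transport genes were called. These median differences were -0.04 for the Gi list and -0.06 for the Gq list, against 0.00 for all genes. In Nac, 8 of 16 Gq genes were higher and 1 lower with the schedule in cocaine (median 0.16, all genes 0.01), where 24.3% of all genes were called. Within series 1000 the calls over all genes in Nac fell from 4190 to 735. Housing called 0 genes of these lists in every region.

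Across the 64 group means, Grm2 and Grm8 had a Pearson r of 0.96 on the log2 scale. For deviations from the group means within regions r was 0.54, a mean over the 4 regions, as are all within-region values here. Grm5 and Grm7 reached 0.93 and, within regions, 0.58. Grm4 and Grm8 were opposed over group means (-0.92), with a mean of -0.05 within regions. Such a mean can hide regions that differ. With striatal markers, Grm4 and Grm8 had r of 0.83 and -0.81 in Nac, but 0.83 and 0.40 in AMY. These values are descriptions over points that share regions, libraries and depth. The 3 genes most like each receptor among 13461 were found in the same way. Over group means they were Doc2a (0.99), Chrm3 and Kcnj3 for Grm2, Tmod1 (0.99), Rps6ka3 and Mpped2 for Grm3, and Rap1gap (0.98), Itgb1bp1 and Sertad4 for Grm4. For Grm5 they were Sowaha (0.995), Ppp3ca and Ano3, for Grm7 Wscd2 (0.99), Gabrg3 and Tiam1, and for Grm8 Tmem200a (0.98), Ptprk and Capn5. Within regions, Doc2a, which codes for a calcium sensor of transmitter release, led the lists of both Grm2 (0.78) and Grm8 (0.68). Nbea (0.84), Lrrc7 and Akap11 came first for Grm5, Jcad (0.72) for Grm3, Mtcl1 (0.68) for Grm4 and Myt1l (0.71) for Grm7.

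**Figure D5:**
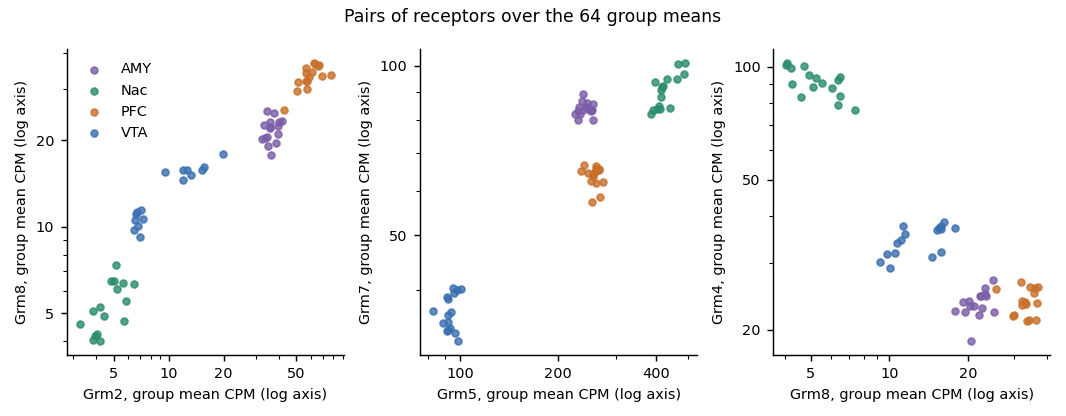
Group mean levels (CPM, log axes) of 3 pairs of receptors over 64 groups, coloured by region. Grm2 and Grm8 rise together from Nac to PFC (r = 0.96), Grm5 and Grm7 are lowest together in VTA (r = 0.93), and Grm4 falls where Grm8 is high (r = -0.92).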

How the data were processed

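Poly(A)-selected, strand-marked RNA libraries of 4 brain regions were sequenced, per the labels' protocols. The authors deposited raw counts of reads per gene for all libraries. STAR, featureCounts, limma and the build GRCm38 (mm10) are listed in the submitters' processing notes; their versions, annotation and strand setting are not stated there, so reads from antisense genes cannot be told apart. Symbols and coordinates came from GENCODE M21 for 42462 of 43346 genes; the rest held 0.11% of counts. Each region was fitted alone with edgeR 4.0.16 in R 4.3.3 (filterByExpr, TMM, robust glmQLFit and glmQLFTest, 16 group means), with Benjamini-Hochberg adjustment over all genes tested and a threshold of 0.05. Regions were compared in 1 fit of 64 groups, also with a log2 difference of at least 1. Series contrasts added the number series to the groups. SE is the log2 difference over the root of the F statistic. Alternatives were DESeq2 1.42.0, limma 3.58.1 voom, RLE size factors, no filter, number series as a term or held fixed, libraries left out and a replicate block. The named genes are the 6 members, Grm6, up to 4 genes of a list with the lowest p, and the 3 genes most like each member among those with a mean of at least 1 CPM. Some genes that this rule names are not reported here. The members and lists were chosen with earlier results of these data known. The fit was tested on simulated data for housing in AMY (17252 genes).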

Additional observations from a re-analysis of the deposited data

Results flagged for a closer look

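In 384 combinations of a group and a receptor, 28 values stood far from the rest of their group by the gap between the outermost value and its nearest neighbour, in 7.29% of combinations, where chance gives about 1 in 20. They are given here as CPM, with the nearest other library in brackets. Grm2 gave 8. It was low in AMY in isolated female acute saline replicate 2 (15.3, nearest 32.9), isolated female chronic saline replicate 5 (17.4, nearest 31.0) and isolated male chronic cocaine replicate 1 (20.1, nearest 34.8). It was high in Nac in group-housed female acute cocaine replicate 7 (6.00, nearest 4.53), group-housed female chronic cocaine replicate 2 (7.19, nearest 3.97; apart by dopamine neuron markers and by sex genes that go against its label) and isolated male acute cocaine replicate 2 (9.20, nearest 5.17). The other Grm2 cases were isolated female chronic saline replicate 4 in PFC (85.1, nearest 66.3) and isolated female acute cocaine replicate 8 in VTA (4.98; apart by choroid plexus markers). Grm8 was low in 2 of the same AMY libraries, isolated female acute saline replicate 2 (8.63) and isolated male chronic cocaine replicate 1 (9.96, nearest 18.4). It was also low in group-housed female acute cocaine replicate 8 in AMY (17.1, nearest 22.4), isolated male acute cocaine replicate 4 in Nac (3.50, nearest 6.81) and group-housed male acute cocaine replicate 2 in PFC (18.1, nearest 32.1).

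Grm3 and Grm5 were low together in the same 2 Nac libraries. Isolated female chronic saline replicate 6, which stood apart on a principal component, had 54.4 CPM of Grm3 (nearest 106.0) and 209 CPM of Grm5 (nearest 416.0), and group-housed male chronic saline replicate 4 had 55 CPM (nearest 91.5) and 176 CPM (nearest 395.0). In VTA, group-housed female chronic cocaine replicate 6, which stood apart by cerebellar markers, had high Grm4 (66.9, nearest 38.4) and low Grm5 (67.7, nearest 89.7) and Grm7 (25.3, nearest 31.5). Isolated male chronic saline replicate 2 in VTA had low Grm5 (45.7, nearest 79.9) and Grm7 (21.3, nearest 32.1). Grm5 was also low in PFC in isolated female acute cocaine replicate 7 (149, nearest 244.0) and group-housed male acute saline replicate 7 (167, nearest 259.0). Grm7 was low in isolated male acute saline replicate 1 in AMY (73.7, nearest 84.0; apart by choroid plexus markers) and isolated male acute cocaine replicate 5 in Nac (55, nearest 78.9), and high in isolated male chronic cocaine replicate 3 in Nac (141, nearest 98.4; apart on a principal component). Grm4 was low in group-housed male chronic cocaine replicate 3 in VTA (24.3, nearest 29.8).

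The schedule difference of VTA against another region, in a fit without number series, passed the test for 8 receptor values (log2). These were Grm2 against AMY (-0.97), Nac (-0.62) and PFC (-0.98), and Grm7 against AMY (-0.17) and Nac (-0.29). The others were Grm8 against AMY (-0.40) and PFC (-0.47), and Grm4 against Nac (-0.24).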

How the results depend on the processing

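Of 366 log2 differences of the 6 receptors, 44 were called, 16 of them within a region. Among 2382 values under alternatives, 2350 kept their side of the threshold with no called value turning, 16 were no longer called, 14 became called and 2 turned. The 2350 include 155 values, not called, that changed sign. All 36 values between regions kept their call under every alternative run on them. So did the 36 AMY values refitted while leaving out 1 library at a time of the isolated male acute cocaine group in AMY, the single group with 5 replicates. Adding the number series to the model changed most: the receptors called went from 1 to 3 for the schedule in cocaine in AMY and from 0 to 1 in PFC, from 1 to 0 in Nac for both treatments and for the PFC schedule in saline, from 2 to 0 for chronic cocaine in PFC and from 4 to 2 for the VTA schedule in saline. Grm4 turned in AMY for the schedule in cocaine (log2 -0.003 to 0.365, adjusted p = 0.00924) and in PFC for saline (-0.20 to 0.051, adjusted p = 0.883). Held to 1 series, calls went from 1 to 0 for the Nac schedule in cocaine, from 2 to 0 for PFC chronic cocaine, and from 0 to 1 for the PFC schedule in cocaine and for VTA acute cocaine. Without the libraries that stood apart there were 3 calls in Nac for the schedule in cocaine and 3 in saline, 1 for PFC chronic cocaine and 1 for the PFC schedule in cocaine. Without the filter on low counts there were 0 for the Nac schedule in cocaine and 1 each for PFC chronic cocaine and PFC series 1200 minus 500. DESeq2 gave 1 for the PFC schedule in cocaine and limma voom 2 for the Nac schedule in saline. The cause of these shifts was not tested.

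Counts over all genes shifted too. With series in the model they went from 7470 to 1681 in VTA, 3954 to 85 in PFC, 3608 to 20 in Nac and 3540 to 172 in AMY for the schedule in saline, and from 4190 to 2330 in Nac and 3154 to 2055 in PFC for that in cocaine. Within series 1000 the latter fell from 6549 to 4200 in VTA, 4190 to 735 in Nac, 3198 to 2019 in AMY and 3154 to 1938 in PFC. PFC chronic cocaine, which called 7.12% of 17003 genes, had 1 call with series in the model, 1 within series 1200, 639 without the filter and 351 without the libraries that stood apart. VTA acute cocaine had 8, and 486 within series 1000. Its difference by housing had 220, against 333 with DESeq2, 85 without the filter, 6 with limma voom and 0 once libraries that stood apart were left out. AMY series 1100 minus 1000 had 656, with 369 unfiltered and 291 without such libraries, and PFC series 1200 minus 500 had 2518, with 1666 unfiltered. Nac series 1200 minus 500 had 1672, with 688 in limma voom, 811 unfiltered and 322 without such libraries, and AMY 728, with 234 unfiltered. Sex calls fell within a series from 381 to between 11 and 26 in AMY, 191 to between 10 and 20 in PFC, 57 to between 11 and 13 in VTA and 47 to between 12 and 19 in Nac. Without libraries that stood apart they were 226 in AMY, 118 in PFC and 95 in Nac.

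Titles share numbers across regions, and same-numbered libraries deviated together only weakly. The median correlation of their deviations lay between 0.008 and 0.052 over pairs of regions. Between libraries of the same group with other numbers it lay between -0.011 and 0. Between 14 and 33 of 99 to 106 numbers passed 0.1. The numbers were not used as pairs. With a replicate block (limma voom), every region comparison kept its number of called receptors, such as 4 for Nac minus AMY. The lowest median of a receptor in a region was 89 counts. Acute and chronic saline share no series, which limits the saline schedule comparison.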
